A study of Mus musculus with 18 samples.

Results

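The genes followed here are 9 genes of polyamine synthesis and of its control by antizyme, taken by name from a table of 54232 genes: Oaz1, Oaz2, Oaz3, Odc1, Azin1, Azin2, Amd1, Srm and Sms. No cut on a measured value was used to choose them, but earlier results of these data were known at the time. The study itself names Oaz3 among its changed genes. They were measured by RNA-seq in round spermatids (RS), the haploid germ cells that have left meiosis and have not yet elongated. RS had been prepared from testes of mice of the genotypes WT, KO and KI, all 75 to 85 days old, and each genotype had 6 libraries, 18 in all. KO mice lack GRTH (DDX25), an RNA helicase of the testis. KI mice carry a human GRTH gene with a missense mutation, and pGRTH, the phosphorylated form of the protein, is missing from them. The study describes both mutants as sterile, with spermatids that halt at the round stage. The cells were separated by size through a gradient of albumin after the tubules had been digested, and not by a marker. The labels do not say that the libraries came from separate animals, so the p-values measure the spread between these libraries, which may be technical.

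Polyamines (putrescine, spermidine and spermine) are small positively charged molecules that bind nucleic acids and are needed for growth. Ornithine decarboxylase (ODC) makes putrescine and is the step at which the pathway is most tightly held. Antizymes bind ODC and slow polyamine uptake, and the broadly expressed antizymes also hand ODC to the proteasome. Antizyme inhibitors resemble ODC, bind antizyme in its place and make no putrescine themselves. An antizyme is translated in full when the ribosome changes reading frame inside the message, which polyamines promote, so that the pathway limits itself. Oaz3 encodes the antizyme of haploid male germ cells, and Azin2 is known for its high expression in testis and brain.

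The stretch where the ribosome changes frame is shown for the 3 antizyme genes, since it is the feature that makes them a family and shows how far the germ cell antizyme differs from the others around it. Each stretch of 30 bases was read from a GENCODE M21 transcript on GRCm38 (Oaz1 at chr10:80828280-80828309 on the plus strand, Oaz2 at chr9:65686257-65686286 on the plus strand and Oaz3 at chr3:94436020-94436049 on the minus strand). All are in coding exons. The capitals mark the last codon of the first frame and the stop codon after it. In part of the annotated coding transcripts the first base of that stop codon is left out, which puts the rest into the other frame. This was so for 3 of 6 coding transcripts of Oaz1, 2 of 4 of Oaz2 and 5 of 6 of Oaz3.
Oaz1: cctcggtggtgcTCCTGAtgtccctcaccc
Oaz2: cctctgtggtgcTCCTGAtgcccctcaccc
Oaz3: tgcctccagtgcTCCTGAgtccctaggagg
The 6 bases in capitals were the same in all 3 genes. Oaz1 and Oaz2 had the same base at 28 of 30 positions, Oaz1 and Oaz3 at 13 and Oaz2 and Oaz3 at 15. Of the 12 bases after the stop codon, 11 were shared by Oaz1 and Oaz2 and 2 by Oaz1 and Oaz3. Bases were compared by position with no gap, and the counts depend on that. The run gtccct comes right after the stop codon in Oaz3 and a base later in Oaz1.

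Between 18766971 and 26776555 counts fell on genes in a library. The unit of a level is normalized CPM, the gene's counts scaled to a common library size with the TMM factors of edgeR. Ddx25 is the targeted gene. Counts were made on mouse genes, so its level may leave out RNA of the human GRTH gene that KI mice carry. The study describes the non-phosphorylated protein as unaffected in KI. Ddx25 lay between 538 and 607 CPM in WT and between 47.7 and 90.9 CPM in KO. In 5 KI libraries it was at most 0.519 CPM, but in the library labelled KI 4 it was at 56.9 CPM, within the range of KO. Of the 153 pairs of libraries, KI 4 and KO 2 were also the closest in their counts, at 1.59 times the difference that counting alone gives. KI 4 was kept in KI under its label. Calls that change without it are named for the 9 genes and for the pathway genes called with all libraries. Left out, it changed the calls of Azin1, Slc7a1 and Slc3a2 in KI and of Sms in KO for any amount, and that of Satl1 in KI past 1 log2 unit. Without it 9 pathway genes were called in KO, against 8 with all libraries, and the added call is not named here. The next 6 closest pairs each held libraries of 1 genotype (WT 1 and 2, WT 3 and 4, WT 5 and 6, KO 4 and 5, KI 1 and 2, KI 3 and 5) at 2.05 to 3.24 times. All 5 round spermatid markers checked were detected, and their summed level was 317 to 583 CPM in WT, 288 to 621 in KO and 259 to 386 in KI.

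Genotypes were compared in a single quasi-likelihood fit of edgeR over all libraries, with the 21058 genes that its filter on low counts kept. All 9 genes passed. A gene was called where the Benjamini-Hochberg adjusted p over all these genes was under 0.1, either for a change of any amount or for a change past 1 log2 unit. In KO against WT, 3 of the 9 genes were called for a change of any amount, and 29.9% of all tested genes were called. All 3 (Oaz1, Oaz3 and Azin2) fell, and 13.5% of all tested genes were called lower. In KI against WT, 4 of the 9 were called beside 31.6% of all tested genes. Oaz3, Azin2 and Odc1 fell, beside 15.4% of genes called lower, and Azin1 rose, beside 16.1% called higher. Past 1 log2 unit, 2 of the 9 genes were called in KO, beside 1.73% of all tested genes (1.13% called lower), and 2 in KI, beside 1.95% (1.43% called lower). In both comparisons these were Oaz3 and Azin2, and both fell. The libraries of KO did not overlap WT for 3 of the 9 genes (Oaz3, Azin2 and Odc1), beside 13.1% of all tested genes, and those of KI for 2 (Oaz3 and Azin2), beside 13.9%. The comparisons share the WT libraries and are therefore not independent of each other. In these bulk libraries fewer cells of a type and less RNA per cell cannot be told apart. The median log2 fold change of the 9 genes was 0.02 in KO and 0.01 in KI, and that of all tested genes was 0.03 and 0.05.

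**Figure D1:**
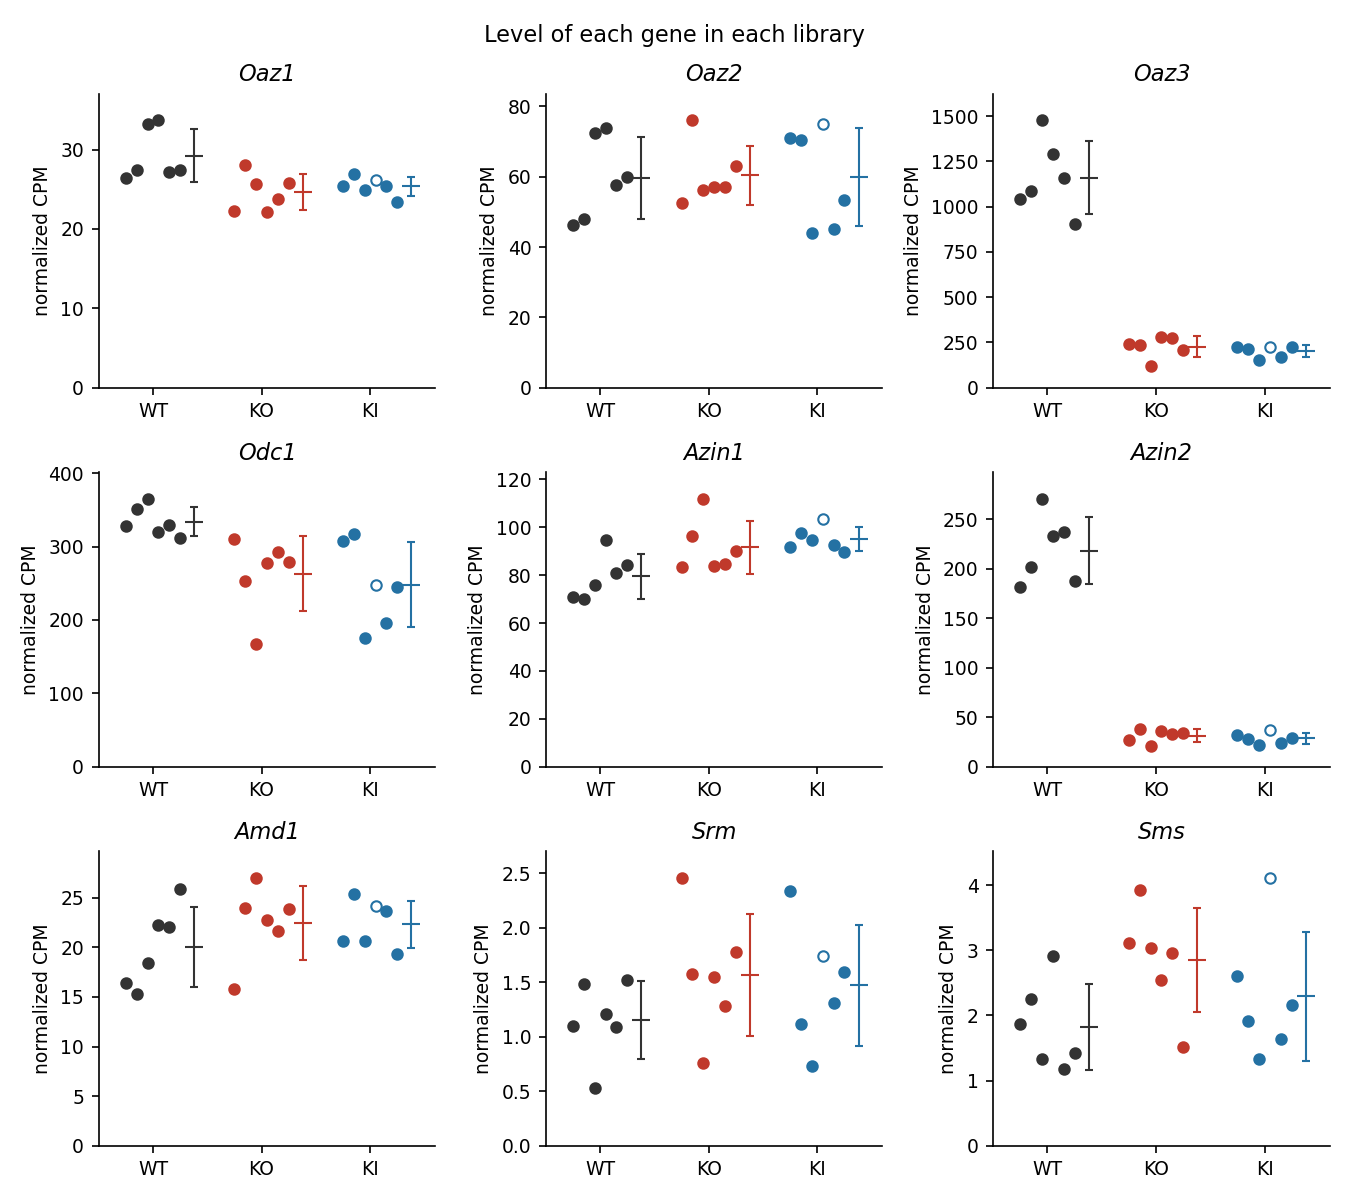
Normalized CPM of the 9 genes in each library (points, in the order of the replicate number within WT, KO and KI; the open point is the library labelled KI 4), with the mean and SD of each genotype (bars, n = 6). Oaz3 lay at 903 CPM or more in WT and at 282 or less in the mutants, and Azin2 at 181 or more in WT and at 37.9 or less in the mutants, while the other genes had ranges that met or lay near each other.

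Oaz3, the antizyme of haploid germ cells (ENSMUSG00000028141, chr3:94432414-94443915, minus strand), had the highest level of the antizymes in every genotype. In WT it was measured at 1041, 1085, 1478, 1292, 1159 and 903 CPM in replicates 1 to 6. In KO the values were 241, 235, 122, 282, 272 and 207 CPM, and in KI they were 224, 212, 152, 226, 171 and 225 CPM. Every KO and every KI library lay below every WT library, with KO 3 and KI 3 the lowest of their genotypes. The mean (± SD, n = 6) was 1160 ± 202 CPM in WT, against 227 ± 57.9 for KO and 202 ± 32.1 for KI. Oaz3 fell 5.12-fold in KO (log2 fold change -2.36, SE 0.18, 95% interval -2.74 to -1.97, edgeR adjusted p = 4.43e-09) and 5.75-fold in KI (-2.52, SE 0.19, -2.91 to -2.14, edgeR adjusted p = 1.25e-09). Without KI 4 the log2 fold change in KI was -2.56. Of the 50-base stretches of Oaz3 transcripts, 0.815% also occurred in transcripts of another gene.

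Parts of the Oaz3 locus are shared with genes on the other strand. Mrpl9, which encodes a protein of the mitochondrial ribosome, overlaps the start of Oaz3, and Tdrkh, which encodes a Tudor domain protein of the piRNA pathway, overlaps its end. The counts were made by strand. Mrpl9 rose in KO (log2 fold change 0.39, edgeR adjusted p = 0.0148) and in KI (0.27, adjusted p = 0.095). Tdrkh, at 42.8 CPM in WT, stood at 49.1 in KO and 46.8 in KI and was not called in either. Neither neighbour was called lower in a mutant.

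Oaz1, the broadly expressed first antizyme (ENSMUSG00000035242, chr10:80826656-80829290, plus strand), was lower in KO by a small amount. It lay between 26.4 and 33.7 CPM in WT with a median of 27.4. It lay between 22.2 and 28.1 CPM in KO with a median of 24.7, and between 23.4 and 26.9 in KI with a median of 25.4. WT 3 and WT 4 were at the top of WT, 5 of 6 KO libraries and 5 of 6 KI libraries lay below the lowest WT library, and the groups overlapped. Oaz1 fell in KO by 0.25 on the log2 scale (SE 0.10, 95% interval -0.45 to -0.04, edgeR adjusted p = 0.0763). In KI its log2 fold change of -0.20 (SE 0.10, -0.41 to 0.0004) was not called (adjusted p = 0.141). The call in KO held under 16 of 27 alternatives. It was lost without WT 3, without WT 4, without KO 1, without KO 4 and without KO 5 (log2 fold changes of -0.21, -0.20, -0.22, -0.22 and -0.24). Among the other alternatives that lost it were close pairs summed to 1 sample (-0.23, edgeR adjusted p = 0.371) and library totals in place of TMM factors (-0.12, edgeR adjusted p = 0.36). Of the 50-base stretches of Oaz1 transcripts 21% occur in other genes. The pseudogene Oaz1-ps alone shares 20.1% of the stretches and had 2 to 14 counts per library, against 408 to 695 for Oaz1.

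Oaz2, the second broadly expressed antizyme (ENSMUSG00000040652, chr9:65668001-65690300, plus strand), was not called in either mutant. It lay between 46.2 and 73.7 CPM in WT with a median of 58.7, between 52.6 and 76.1 in KO with a median of 57.2, and between 44.1 and 75.0 in KI with a median of 61.9. Within WT the close pair WT 1 and 2 was low and the close pair WT 3 and 4 high, and within KI the libraries KI 1, 2 and 4 were high and KI 3 and 5 low. The log2 fold change was 0.019 in KO (95% interval -0.30 to 0.34, edgeR adjusted p = 0.954) and 0.0051 in KI (-0.32 to 0.33, adjusted p = 0.988). Its sign turned in some of the alternative settings.

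To compare the antizymes with each other, levels were divided by the length of each gene's exons, as CPM per kb. In WT, Oaz3 stood at 268 ± 46.7 CPM per kb, Oaz2 at 19.9 ± 3.93 and Oaz1 at 11.4 ± 1.29 (SD, n = 6). Oaz3 made up 87.2 to 90.4% of the summed level of the 3 antizymes in WT libraries, with a mean of 89.5 ± 1.27%. In KO its share was 49.5 to 70.1%, with a mean of 62.8 ± 7.85%, and in KI it was 58.9 to 65.8%, with a mean of 60.9 ± 2.6%. Every mutant library was below every WT library, and KO 3 had the lowest share. The summed antizyme level was 299 ± 50.7 CPM per kb in WT, 82.2 ± 13.5 in KO and 76.5 ± 11.7 in KI. Without KI 4 the share in KI was 61.1 ± 2.83%. These shares and sums are built from the same values as the fold changes and were given no test.

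Odc1, which encodes the enzyme that antizymes bind (ENSMUSG00000011179, chr12:17544794-17551505, plus strand), was lower in the mutants by far less than Oaz3. In WT it was at 328, 351, 365, 320, 329 and 312 CPM in replicates 1 to 6. In KO it was at 310, 254, 167, 277, 293 and 279 CPM, and in KI at 308, 318, 175, 248, 196 and 245 CPM. All 6 KO libraries and 5 of 6 KI libraries lay below the lowest WT library, while KI 2, at 318 CPM, lay inside WT, and the lowest levels were again in KO 3 and KI 3. Odc1 fell in KI by 0.43 on the log2 scale (SE 0.16, 95% interval -0.75 to -0.10, edgeR adjusted p = 0.0482). In KO its log2 fold change was -0.34 (SE 0.16, -0.67 to -0.02) and was not called (adjusted p = 0.12), although no KO library overlapped WT. The call in KI held under 20 of 27 alternatives. It was lost without WT 3, without KI 3 and without KI 5 (log2 fold changes of -0.35, -0.35 and -0.37). Among the other alternatives that lost it were close pairs summed (-0.41, edgeR adjusted p = 0.26) and library totals (-0.29, edgeR adjusted p = 0.131). Of the 50-base stretches of Odc1 transcripts, 24.3% also occurred in other genes, with Gm7993 holding 11.7%.

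The level of Oaz3 was set against that of its target in each library. The ratio of Oaz3 to Odc1 in CPM per kb was 2.28 to 3.19 in WT, 0.576 to 0.801 in KO and 0.524 to 0.724 in KI. Per length, Oaz3 thus stood above Odc1 in every WT library and below it in every mutant library. With no division by length the ratio of CPM was 2.9 to 4.05 in WT, 0.732 to 1.02 in KO and 0.665 to 0.92 in KI, so that Oaz3 stood above Odc1 in 1 mutant library, KO 4. The mean ratio (± SD, n = 6) was 2.73 ± 0.388 for WT, 0.672 ± 0.0941 for KO and 0.651 ± 0.083 for KI, and 0.638 ± 0.0856 in KI without KI 4.

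**Figure D2:**
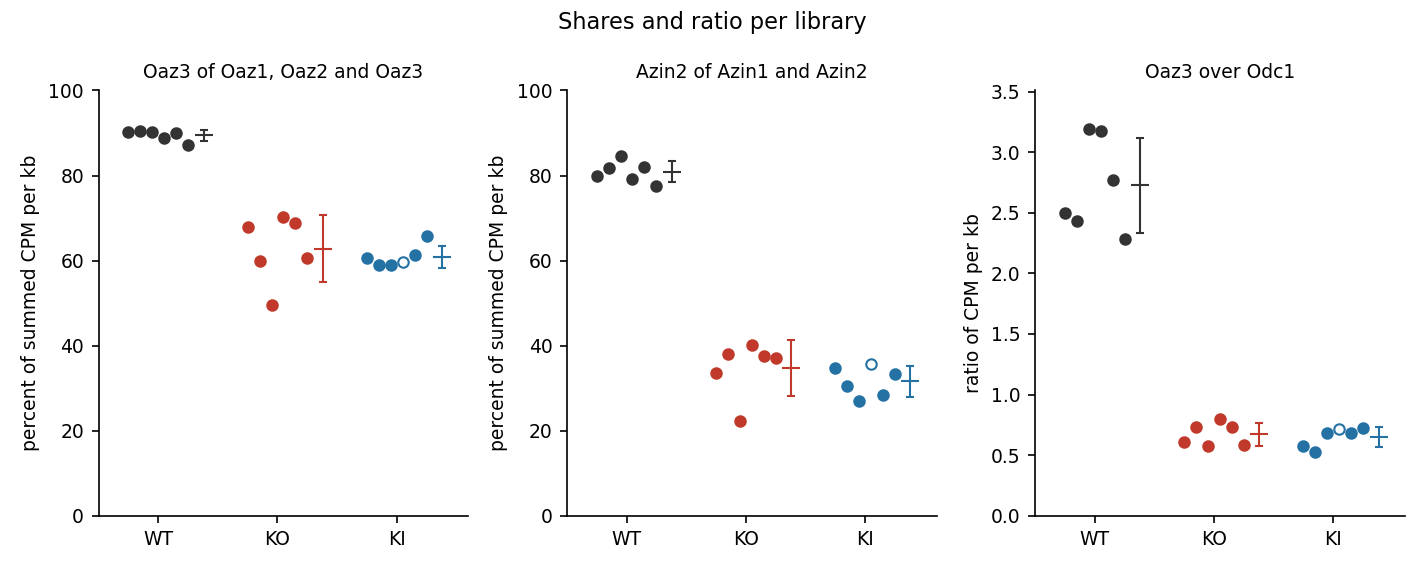
The share of Oaz3 in the summed CPM per kb of the 3 antizymes (left, percent), the share of Azin2 in that of the 2 antizyme inhibitors (middle, percent) and the ratio of Oaz3 to Odc1 in CPM per kb (right) in each library (points; open point, the library labelled KI 4), with mean and SD (bars, n = 6). The mean share of Oaz3 was 89.5% in WT and 62.8% and 60.9% in KO and KI, and the ratio per length lay above 1 in every WT library and below 1 in every mutant library.

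Azin2, the antizyme inhibitor known from testis and brain (ENSMUSG00000028789, chr4:128930233-128962442, minus strand), had the largest fold change of the 9 genes. In WT it was at 181, 202, 270, 233, 237 and 187 CPM in replicates 1 to 6. In KO it was at 27.2, 37.9, 20.5, 36.0, 32.8 and 34.0 CPM, and in KI at 31.6, 27.7, 22.4, 37.0, 23.7 and 28.7 CPM. The mutant libraries lay far below WT with no overlap, and KO 3 and KI 3 were again the lowest of their genotypes. Azin2 fell 6.96-fold in KO (log2 fold change -2.80, SE 0.16, 95% interval -3.14 to -2.46, edgeR adjusted p = 1.18e-10) and 7.66-fold in KI (-2.94, SE 0.16, -3.28 to -2.60, edgeR adjusted p = 5.51e-11). Without KI 4 the log2 fold change in KI was -3.03. No 50-base stretch of its transcripts occurred in another gene. Gm15904, an antisense gene inside the Azin2 locus, had mean levels of 6.72, 7.42 and 6.44 CPM in WT, KO and KI and was not called.

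Azin1, the broadly expressed antizyme inhibitor (ENSMUSG00000037458, chr15:38487427-38519266, minus strand), was slightly higher in KI. It lay between 70.2 and 94.7 CPM in WT with a median of 78.5, between 83.4 and 112 in KO with a median of 87.3, and between 89.6 and 103 in KI with a median of 93.8. WT 1 and WT 2 were the lowest libraries, 3 of 6 KI libraries and 2 of 6 KO libraries lay above the highest WT library, and the groups overlapped. Azin1 rose in KI by 0.26 on the log2 scale (SE 0.11, 95% interval 0.04 to 0.48, edgeR adjusted p = 0.0779). In KO its log2 fold change of 0.21 (SE 0.11, -0.01 to 0.42) was not called (adjusted p = 0.174). The call in KI held under 17 of 27 alternatives. It was lost without KI 4 (0.23, edgeR adjusted p = 0.141) and without any 1 of WT 1, WT 2, WT 5, KI 2 and KI 3. Among the other alternatives that lost it was close pairs summed (0.28, edgeR adjusted p = 0.338). Gm49077, which starts on the other strand at the same place, was not called.

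In WT, Azin2 made up 77.6 to 84.7% of the summed CPM per kb of the 2 antizyme inhibitors. In KO it made up 22.2 to 40.1%, and in KI 26.9 to 35.7%. Azin2 was thus the larger part in every WT library and the smaller part in every mutant library. The mean share was 80.9 ± 2.47% in WT, 34.7 ± 6.5% in KO and 31.6 ± 3.58% in KI (30.8 ± 3.3% without KI 4), and the summed level was 67.0 ± 9.02, 22.5 ± 1.57 and 22.3 ± 1.86 CPM per kb. Oaz3 over Azin2 was 4.94 ± 0.344 in WT, 6.71 ± 1.18 in KO and 6.62 ± 0.577 in KI as a ratio of CPM per kb.

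Markers of elongating spermatids moved with Oaz3 and Azin2. The 8 markers used for these later cells were Prm1, Prm2, Tnp1, Tnp2, Gapdhs, Odf1, Akap4 and Smcp, which encode chromatin, sheath and energy proteins of the forming sperm. The study states that Prm2 and Tnp2 are already transcribed in RS and stored. By that statement, RNA of Prm2 and Tnp2 is not limited to elongating cells. All 8 markers were called lower past 1 log2 unit in both mutants, beside 1.13% of all tested genes in KO and 1.43% in KI. The log2 fold changes of the 8 markers had a median of -2.11 in KO and -2.31 in KI. Their summed level was 14526 to 20217 CPM in WT, 1681 to 4277 in KO and 2244 to 3465 in KI, and none was at 0 in any library. The lowest sums were in KO 3 and KI 3, the libraries with the lowest Oaz3, Azin2 and Odc1 of their genotypes. Markers of Leydig cells moved the other way, with 6 of 6 called higher in both mutants and a summed level of 10.8 to 22.4 CPM in WT, 33.9 to 57.9 in KO and 14.5 to 74.4 in KI. Of the 5 round spermatid markers 1 was called lower in KO and 2 in KI, with median log2 fold changes of -0.06 and -0.41, beside -0.34 and -0.43 for Odc1. Of 6 spermatogonium markers 2 were called higher in KO and 1 in KI, with sums of 21.7 to 29.7 CPM in WT, 27.7 to 56.7 in KO and 15.8 to 59.1 in KI. Of 5 macrophage markers 2 were called higher in each mutant (3.93 to 8.43 CPM in WT, 5.89 to 13.1 in KO and 8.18 to 13.4 in KI), and of 6 Sertoli markers 2 were called lower in each (10.3 to 20.7, 8.57 to 15.8 and 9.31 to 15.8 CPM). Of 7 spermatocyte markers 3 were called higher and 2 lower in KO, and 2 higher and 1 lower in KI. Beside these marker counts, 16.4% of all tested genes were called higher in KO and 16.1% in KI. Called lower were 13.5% of all tested genes in KO and 15.4% in KI. The lists are short, and a count of 1 or 2 markers is not read here as a shift of a cell type. The mitochondrial ribosomal RNAs mt-Rnr1 and mt-Rnr2 took 21.3% of the counts in KO 3, the highest share of all libraries, and 15.3% in KI 3. This share was 8.96 to 12.4% in WT, 7.07 to 17.4% in the other KO libraries and 7.73 to 17.5% in KI. Within KI, KI 4 (17.5%) and KI 5 (15.5%) had a higher share than KI 3. The part of these cell types, and of this share, in the changes of the 9 genes was not tested.

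**Figure D3:**
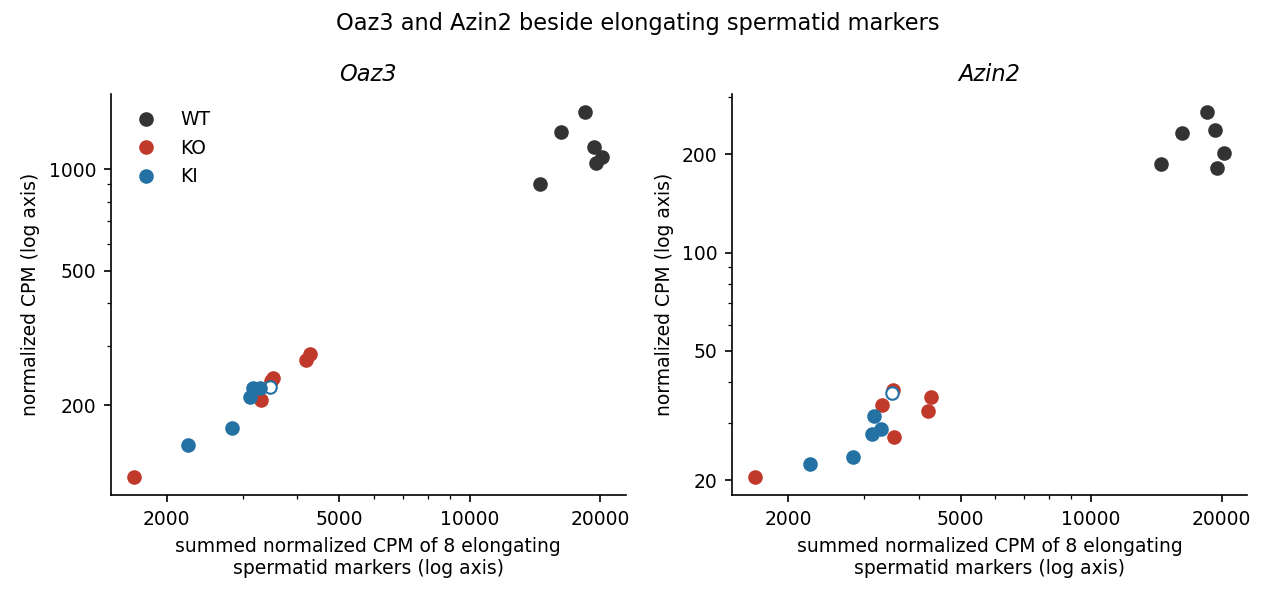
Normalized CPM of Oaz3 (left) and Azin2 (right) against the summed normalized CPM of 8 elongating spermatid markers, 1 point per library, on log axes, with WT in black, KO in red and KI in blue (open point, the library labelled KI 4). WT libraries lie at sums of 14526 to 20217 and the mutant libraries at 1681 to 4277, with KO 3 lowest on both axes.

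Amd1, which encodes the decarboxylase that makes the aminopropyl donor for spermidine and spermine (ENSMUSG00000075232, chr10:40287458-40302186, minus strand), lay between 15.3 and 25.8 CPM in WT, 15.8 and 27 in KO, and 19.4 and 25.4 in KI. The medians were 20.2, 23.3 and 22.2 CPM, and the groups overlapped almost wholly. Its log2 fold change was 0.17 in KO (95% interval -0.12 to 0.46, edgeR adjusted p = 0.443) and 0.15 in KI (-0.13 to 0.44, adjusted p = 0.471). These values are uncertain, since 78.1% of the 50-base stretches of Amd1 transcripts occur in other genes (76.7% in its near-identical copy Amd2), and reads that match both were not assigned to either. Amd2 had 5 to 20 counts per library and was not called (log2 fold changes of 0.28 in KO and -0.04 in KI).

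The aminopropyl transferases were the lowest of the 9 genes. Srm, which encodes spermidine synthase (ENSMUSG00000006442, chr4:148591503-148594993, plus strand), had 10 to 53 counts per library, or 0.531 to 1.52 CPM in WT, 0.76 to 2.45 in KO and 0.73 to 2.34 in KI. Its log2 fold change was 0.42 in KO (95% interval -0.18 to 1.02) and 0.34 in KI (-0.26 to 0.94), with edgeR adjusted p values of 0.337 and 0.446. Sms, which encodes spermine synthase (ENSMUSG00000071708, chrX:157443855-157492287, minus strand), had 25 to 97 counts per library, or 1.18 to 2.91 CPM in WT with a median of 1.65, 1.52 to 3.93 in KO with a median of 3, and 1.32 to 4.11 in KI with a median of 2.04. KI 4 held the highest level of Sms and 4 of 6 KO libraries lay above WT. The log2 fold change of Sms was 0.63 in KO (SE 0.27, 0.06 to 1.20) and lay just outside the threshold (adjusted p = 0.103). Without KI 4 it was called (adjusted p = 0.0641). In KI it was 0.32 (SE 0.28, -0.25 to 0.90, adjusted p = 0.444). The intervals of both genes are wide at this depth, and of the 50-base stretches of Sms transcripts 17.5% occur in other genes.

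**Figure D4:**
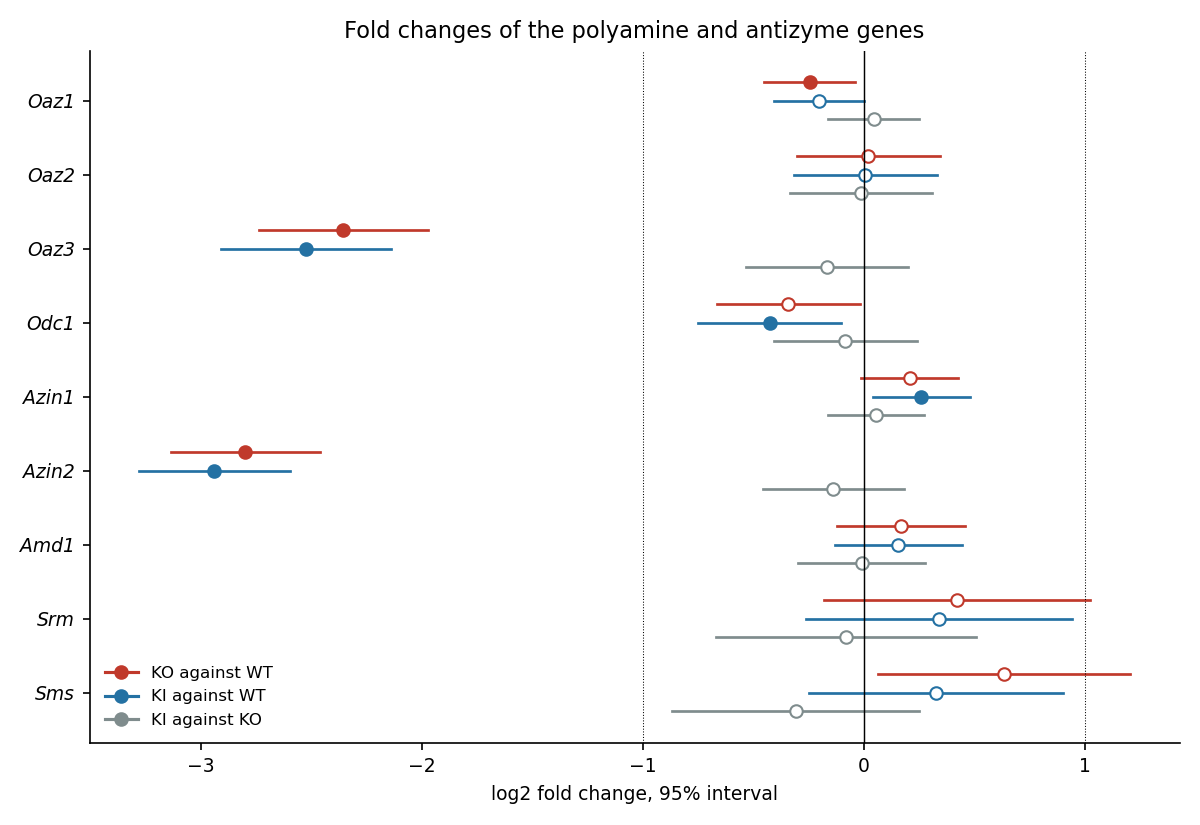
Log2 fold change (points) with its 95% interval (lines) of each of the 9 genes in KO against WT, KI against WT and KI against KO, filled where the edgeR adjusted p was under 0.1. Dotted lines mark a change of 1 log2 unit, and against WT Oaz3 and Azin2 lie between -2.36 and -2.94 while the other 7 genes lie between -0.43 and 0.63.

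The order of the 9 genes by level per length differed between WT and the mutants. In WT the order was Oaz3, Odc1 (98.1 ± 5.84 CPM per kb), Azin2 (54.3 ± 8.52), Oaz2, Azin1 (12.7 ± 1.48), Oaz1, Amd1 (5.66 ± 1.14), Srm (0.723 ± 0.224) and Sms (0.304 ± 0.11). Azin1 and Oaz1, and Srm and Sms, were neighbours whose ranges overlapped, and the other neighbours did not overlap. In KO, Odc1 stood above Oaz3, at 77.3 ± 14.9 and 52.4 ± 13.4 CPM per kb with ranges that overlapped. In KI these genes were at 72.9 ± 16.9 and 46.6 ± 7.41 CPM per kb, again with overlap. Azin2 stood at rank 6 in both mutants, at 7.8 ± 1.61 CPM per kb in KO and 7.08 ± 1.33 in KI, between Oaz1 and Amd1 and with a range that overlapped both.

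KI was compared with KO to ask whether loss of the phosphorylated form and loss of the whole protein gave the same levels. In this comparison 0 of the 9 genes were called, beside 0.0997% of all tested genes. By edgeR 0 of the 9 had an unadjusted p under 0.05, and DESeq2 also called 0. The log2 fold changes ran from -0.31 (Sms) to 0.05 (Azin1), and the smallest adjusted p was 0.961. For Oaz3 the log2 fold change of KI against KO was -0.17 (SE 0.18, 95% interval -0.53 to 0.20), for Azin2 -0.14 (SE 0.15, -0.46 to 0.18) and for Odc1 -0.08 (SE 0.16, -0.41 to 0.24). These intervals hold the differences that the libraries leave possible, and no limit of detection was worked out. Without KI 4 the number called was again 0, beside 0.522% of all tested genes (111 genes, against 21 with it).

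The protein-coding genes whose pattern over the 18 libraries was most like that of Oaz3 were found by the root mean square difference of log2 CPM, after the WT mean of each gene was taken away. They were Glul (glutamine synthetase) at 0.121, Prkar2a (a regulatory subunit of protein kinase A) at 0.143, Fam71f2 at 0.143, Atl3 (a GTPase that shapes the endoplasmic reticulum) at 0.148 and 1700016H13Rik at 0.179, beside a median of 2.12 over 14648 genes. Glul went from 331 ± 42.5 CPM in WT to 63.1 ± 19.5 in KO and 55.2 ± 9.83 in KI. For Azin2 they were Spem1 (a protein of late spermatids) at 0.111, Ubqlnl at 0.163, Ttc24 at 0.17, 1700012A03Rik at 0.188 and Tssk6 (a testis kinase of late spermatids) at 0.194. Spem1 went from 310 ± 42.3 CPM in WT to 46.2 ± 10.8 in KO and 40.7 ± 8.75 in KI. Oaz3 was the 26th nearest to Azin2 and Azin2 the 59th nearest to Oaz3, at 0.379. The measure is a description, and all points share the libraries.

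The rest of the pathway was followed with a list of 32 genes, of which 28 passed the filter. Arg1, Agmat, Slc18b1 and Gm853 had at most 8 counts in any library and were not tested. In KO, 7 genes of the list rose and 1 fell, beside 16.4% of all tested genes called higher and 13.5% called lower. In KI, 5 rose and 1 fell, beside 16.1% and 15.4%. The median log2 fold change of the 28 genes was 0.22 in KO and 0.16 in KI, beside 0.03 and 0.05 over all tested genes. In KI against KO 0 of the 28 were called by edgeR, beside 0.0997% of all tested genes, and 0 by DESeq2. By edgeR 2 of them (Satl1 and Enoph1) had an unadjusted p under 0.05.

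Of the 5 genes of polyamine acetylation and oxidation, Satl1 fell in both mutants. Satl1 encodes a relative of the spermidine and spermine acetyltransferase. It was at 18.5 to 41.2 CPM in WT with a median of 28.5, at 3.42 to 31.5 in KO with a median of 7.43, and at 4.44 to 8.04 in KI with a median of 5.9. KO 1 at 31.5 CPM lay within WT, while the other 5 KO libraries, at 9.13 CPM or less, and all KI libraries lay below WT. Its log2 fold change was -1.51 in KO (SE 0.38, 95% interval -2.29 to -0.72, edgeR adjusted p = 0.0056) and -2.32 in KI (SE 0.39, -3.14 to -1.51, adjusted p = 0.000126). Without KO 1 the log2 fold change in KO was -2.22, which was also called past 1 log2 unit (edgeR adjusted p = 0.00386). In KI Satl1 was also called past 1 log2 unit (adjusted p = 0.0629), a call that held under 15 of 27 alternatives. It was lost when any of WT 1, WT 2, WT 3, KI 1, KI 2, KI 3, KI 4 or KI 5 was left out, with an edgeR adjusted p of 0.164 without WT 2 and of 0.142 without KI 4.

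The acetyltransferases and oxidases of the list were low. Paox, which encodes the oxidase that turns acetylated polyamines back, rose in KO by 0.47 on the log2 scale (2.75 against 1.99 CPM, edgeR adjusted p = 0.0762) and was not called in KI (0.40, adjusted p = 0.126). The call in KO held under 16 of 27 alternatives and was lost without any 1 of WT 1, WT 2, WT 4, WT 5, KO 2, KO 3 and KO 6, with DESeq2, with no filter on low counts and with close pairs summed. Sat1, the main acetyltransferase, had 3 to 20 counts per library and log2 fold changes of 0.83 and 0.59 that were not called. Sat2 had log2 fold changes of -0.54 and -0.33, and neither was called.

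Both tested genes of ornithine supply, 2 of 2, were called higher in KO, beside 16.4% of all tested genes. Arg2, which encodes the mitochondrial arginase that makes ornithine, was at 0.584 to 1.28 CPM in WT, 1.47 to 2.96 in KO and 1.94 to 2.88 in KI, on 11 to 74 counts per library. No mutant library overlapped WT. Arg2 rose by 1.21 on the log2 scale in KO (SE 0.21, edgeR adjusted p = 0.000176) and by 1.15 in KI (SE 0.21, adjusted p = 0.000285), and was not called past 1 log2 unit. Oat, whose enzyme passes ornithine to and from glutamate, rose in KO by 0.47 (7.61 against 5.51 CPM, adjusted p = 0.0569) and was not called in KI (0.36, adjusted p = 0.138). Its call in KO held under 20 of 27 alternatives and was lost without any 1 of WT 1, WT 5, KO 2 and KO 3 (adjusted p = 0.178 without KO 2), with no filter on low counts (0.132) and with close pairs summed (0.234).

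Of the 5 tested transporters 4 were called higher in KO and 3 in KI, beside 16.4% and 16.1% of all tested genes. With close pairs summed to 1 sample the 4 calls in KO (edgeR adjusted p of 0.107 to 0.318) and the 3 in KI (0.254 to 0.3) were lost, beside 8.11% and 7.02% of all tested genes called higher. Slc7a1, a carrier of arginine and ornithine, rose by 0.47 in KO (15.4 against 11.1 CPM, edgeR adjusted p = 0.0093) and by 0.32 in KI (13.9 CPM, adjusted p = 0.0697). The call in KI was also lost without KI 4 (0.24, adjusted p = 0.171), without any 1 of WT 1, WT 2, WT 5, KI 2 and KI 5, and with no filter on low counts. Slc3a2, the shared heavy chain of amino acid carriers that has been tied to polyamine uptake, rose by 0.40 in KO (39.2 against 29.8 CPM, adjusted p = 0.0168) and by 0.30 in KI (36.8 CPM, adjusted p = 0.0628). The call in KI was also lost without KI 4 (0.26, adjusted p = 0.134), without any 1 of WT 1, WT 2, KI 1 and KI 2, with no filter and with the replicate number as a block (adjusted p = 0.102). Atp13a3, a polyamine pump, rose by 0.27 in KO (55.4 against 45.8 CPM, adjusted p = 0.0543) and by 0.32 in KI (57.2 CPM, adjusted p = 0.0231). Its call in KO was also lost without any 1 of WT 1, WT 2, WT 3 and KO 4, with no filter and with the size factors of DESeq2. Atp13a4 rose by 0.83 in KO (1.78 against 0.997 CPM, adjusted p = 0.0615) on 7 to 55 counts per library and was not called in KI (0.54, adjusted p = 0.239). Its call in KO was also lost without any 1 of WT 4, WT 5, WT 6, KO 2 and KO 4 and with no filter. All of these were small beside the changes of Oaz3 and Azin2.

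**Figure D5:**
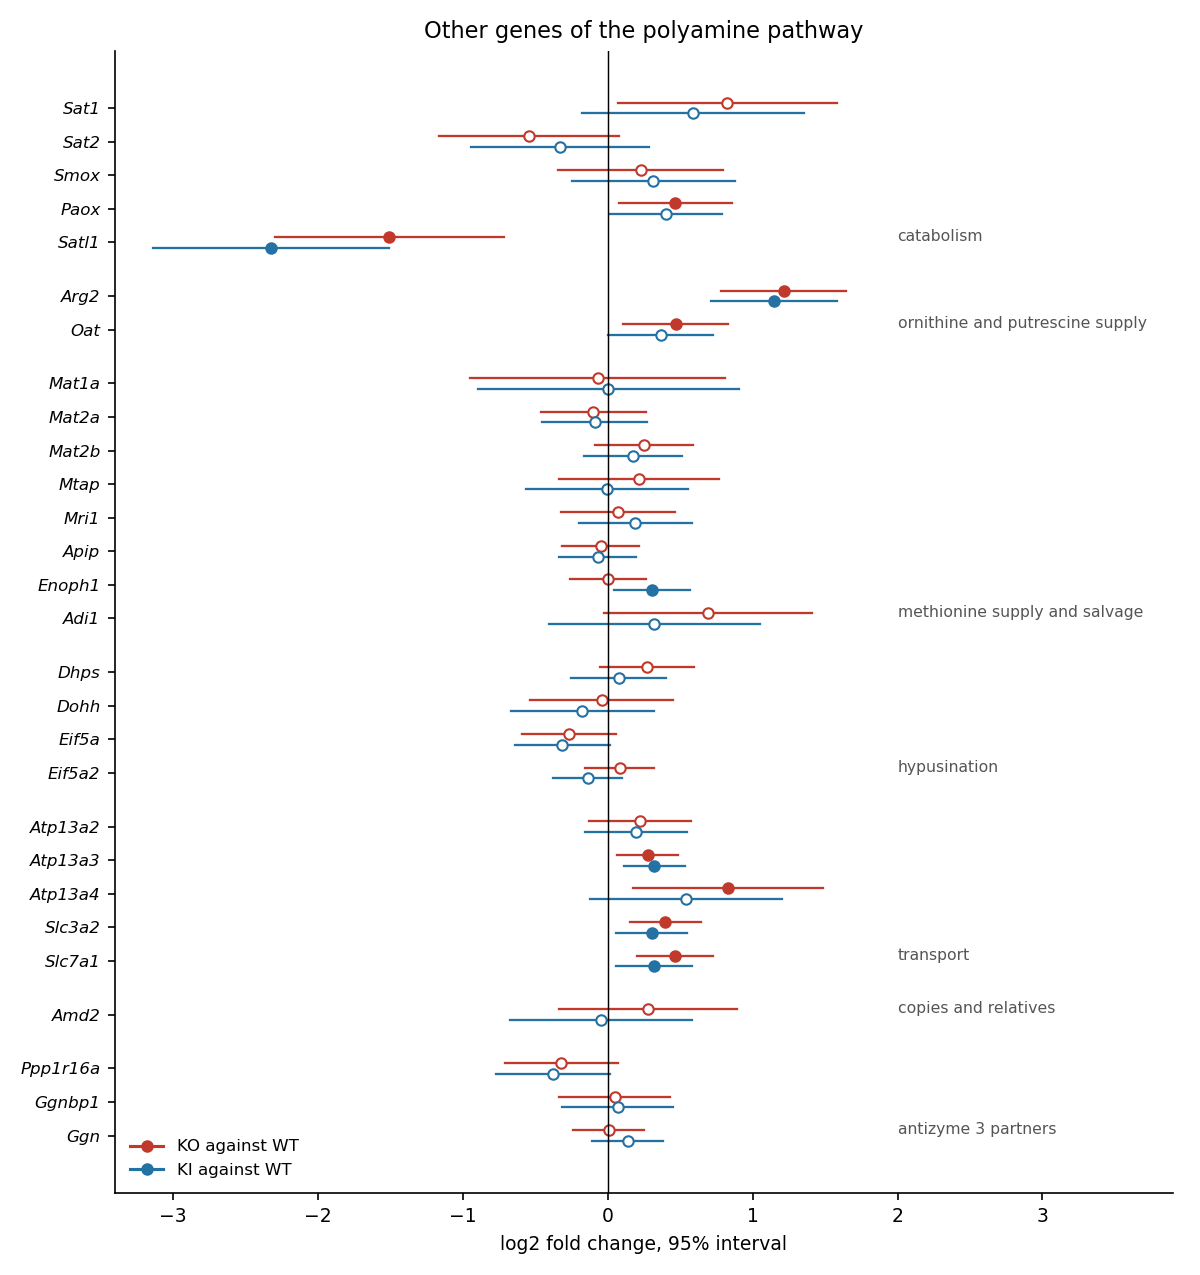
Log2 fold change (points) with its 95% interval (lines) of the 28 tested genes of the wider pathway, by role, in KO against WT and KI against WT, filled where the edgeR adjusted p was under 0.1. Satl1 stands lowest at -1.51 and -2.32 and Arg2 highest at 1.21 and 1.15.

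The genes that supply methionine and recycle the by-product of spermidine and spermine synthesis were tested as a group of 8. In KO 0 of them were called, beside 29.9% of all tested genes, and in KI 1 of them was called, beside 31.6%. That gene was Enoph1, an enzyme of methionine salvage chosen here after its values were seen, and it rose by 0.31 on the log2 scale in KI (21.2 against 17.1 CPM, edgeR adjusted p = 0.0817) with a log2 fold change near 0 in KO (0.0035). The call held under 17 of 27 alternatives and was lost without any 1 of WT 1, WT 2, WT 4, KI 1, KI 2 and KI 3, with no filter, with the replicate number as a block (adjusted p = 0.111) and with close pairs summed. Adi1 had log2 fold changes of 0.69 and 0.32, Mat2b of 0.25 and 0.17, Mtap of 0.22 and -0.0024 and Mat2a of -0.10 and -0.09, and none of these was called.

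Hypusination, the use of spermidine to modify the translation factor eIF5A, was followed with 4 genes. By edgeR 0 of them were called in either mutant, beside 29.9% of all tested genes in KO and 31.6% in KI. An unadjusted p under 0.05 was found for 0 of them. Eif5a, the substrate, had mean levels of 234, 194 and 188 CPM in WT, KO and KI, with log2 fold changes of -0.27 and -0.31. Dhps, which carries out the first step, had log2 fold changes of 0.27 and 0.07. Dohh, which carries out the second, had log2 fold changes of -0.04 and -0.18, and Eif5a2 of 0.08 and -0.14.

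The list also held Ppp1r16a, Ggn and Ggnbp1. By edgeR 0 of these were called in either mutant, beside 29.9% of all tested genes in KO and 31.6% in KI. An unadjusted p under 0.05 was found for 0 of them. Ppp1r16a, a regulatory subunit of protein phosphatase 1, had mean levels of 36.6, 29.3 and 28.1 CPM in WT, KO and KI, with log2 fold changes of -0.32 and -0.38 that were not called (edgeR adjusted p = 0.248 and 0.155). Ggnbp1, a gametogenetin binding protein, was at 894, 926 and 938 CPM in the same order. Ggn, gametogenetin itself, was at 442, 444 and 486 CPM. Neither was called, with log2 fold changes of 0.05 and 0.07 for Ggnbp1 and 0.01 and 0.14 for Ggn.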

How the data were processed

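RNA of RS had been made by the authors into strand-specific libraries with the Takara Pico kit, without polyA selection. The deposited values are raw counts per gene: per the submitters' processing notes and the study's methods, reads were trimmed with cutadapt 3.4, aligned to GRCm38 with STAR 2.7.8a, and read pairs uniquely assigned by strand to GENCODE M18 genes were counted with featureCounts of Subread 2.0.1, with duplicates kept. Shared sequence between genes lowers such counts. The table's gene lengths are merged exon lengths, and 0 value columns lacked a library. Genotypes and replicate numbers came from the labels. Gene positions, symbols and transcript sequences were taken from GENCODE M21 for GRCm38, which names 54079 of the 54232 identifiers.

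The counts were fitted in R 4.3.3 with edgeR 4.0.16 (filterByExpr, TMM factors, 1 quasi-likelihood model of genotype over all libraries). Changes of any amount were tested with glmQLFTest and changes past 1 log2 unit with glmTreat in its worst case form, with Benjamini-Hochberg adjustment. Intervals use the moderated degrees of freedom. The scripts were tested on simulated counts. A share of 50-base stretches was counted over GENCODE M21 transcripts. A gene at 3 counts in a library stands at 0.112 to 0.16 CPM before scaling, and this floor, like any counting error, does not cover PCR duplicates. Besides the 9 genes and Ddx25, the text names pathway genes past 1 log2 unit or else up to 4 of each role with the smallest adjusted p in KO, the 5 genes nearest to Oaz3 and to Azin2, and genes that overlap or copy one of the 9. The genes, lists and alternatives were chosen with earlier results of these data known. Alternatives were DESeq2 1.42.0, its size factors, library totals, other filters, the replicate number as a block, a fit of only the genotypes compared, an adjusted p threshold of 0.05, close pairs of libraries summed and each library left out in turn. The null interval form of glmTreat, the share of Azin2, Satl1 without KO 1 and the ratio of Oaz3 to Odc1 with no division by length were added after seeing the data. Figures were drawn with matplotlib 3.10.9.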

Additional observations from a re-analysis of the deposited data

Results flagged for a closer look

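The highest and lowest library of each genotype was compared with the rest of its genotype for 63 sets of 6 values, and 4 libraries stood apart by Dixon's criterion, which chance alone passes in about 1 in 20 sets. Satl1 was at 31.5 CPM in KO 1, where the other KO libraries were at 3.42 to 9.13 CPM. Ddx25 was at 56.9 CPM in KI 4, where the other KI libraries were at 0.0456 to 0.519 CPM. The share of Oaz3 in the summed antizyme level was 65.8% in KI 6, where the other KI libraries were at 58.9 to 61.3%. The share of Azin2 in the summed antizyme inhibitor level was 22.2% in KO 3, where the other KO libraries were at 33.7 to 40.1%. The causes were not tested.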

How the results depend on the processing

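Oaz3 and Azin2 fell past 1 log2 unit in both mutants under all 27 alternatives run, with log2 fold changes of -2.43 to -2.23 (Oaz3, KO), -2.56 to -2.38 (Oaz3, KI), -2.86 to -2.67 (Azin2, KO) and -3.03 to -2.79 (Azin2, KI). The small changes of Oaz1, Odc1 and Azin1 depend on single libraries, Odc1, Sms and Azin1 were called in KO under 7, 8 and 2 of the 27 alternatives, and library totals in place of TMM moved the median log2 fold change of all genes to 0.15 in KO and 0.20 in KI. Counts of 10 to 53 for Srm and 25 to 97 for Sms limit what can be said of them.

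Of the 9 genes, leaving out 1 library called 2 to 5 in KO (3 with all libraries) and 2 to 4 in KI (4 with all libraries), with 5 in KO and 2 in KI without KI 3. The number in KI was 2 with no filter on low counts and 2 with close pairs summed, with or without KI 4. Of all tested genes, 15.8% were then called in KO and 14.8% in KI with close pairs summed (29.9% and 31.6% before), and 12.8% and 13.9% with no filter. Of the pathway genes, leaving out 1 library called 5 to 11 in KO (8 with all libraries, 5 without WT 1 and 5 without KO 2) and 3 to 8 in KI (6 with all libraries, 3 without WT 1 and 4 without KI 4). At the threshold of 0.05 there were 4 in KO and 3 in KI, with no filter 4 and 3, and with close pairs summed, with or without KI 4, 2 and 2. The causes were not tested. With no division by length the ratio of Oaz3 to Odc1 was 3.46 in WT, 0.854 in KO and 0.828 in KI, and the share of Oaz3 among the antizymes was 92.8% in WT, 71.8% in KO and 70.3% in KI, and it ranged over 89.3 to 89.9%, 61.3 to 65.5% and 59.9 to 61.3% with 1 library left out.

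The sign turned, with no call, for values near 0. For Oaz2 in KO this was so with DESeq2 (-0.011), its size factors (-0.010) and no filter (-0.018), in KI with close pairs summed without KI 4 (-0.049), and with 1 library left out the range was -0.057 to 0.088 in KO and -0.070 to 0.12 in KI. For Oaz2 in KI against KO it was so with DESeq2 (0.023), its size factors (0.024), library totals (0.0028), no filter (0.045), only the genotypes compared (0.046) and close pairs summed (0.016), and the range with 1 library left out was -0.090 to 0.063. For Amd1 in KI against KO it was so with DESeq2 (0.029), its size factors (0.031), library totals (0.0085), no filter (0.048) and only the genotypes compared (0.053), and the range was -0.094 to 0.051. For Srm in KI against KO the range was -0.26 to 0.081. For Enoph1 in KO it was so with DESeq2 (-0.021), its size factors (-0.021), no filter (-0.028) and close pairs summed without KI 4 (-0.0011), and the range was -0.058 to 0.054.

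Of 18 pairs of libraries with the same replicate number, 7 had deviations from their group means that correlated above 0.1, and the range was -0.44 to 0.48. This correlation was not worked out for pairs with different numbers. It therefore cannot decide whether the replicate numbers pair the samples. With the number as a block, 4 of the 9 genes were called in KO and 3 in KI, Oaz1 in KO was not called (adjusted p = 0.111), Azin1 in KI was not called (0.103), Odc1 in KO was called (0.0871) and Sms in KO was called (0.0466). Under the block the log2 fold change of Oaz2 in KI was -0.0076 and that of Amd1 in KI against KO was 0.0020.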
